A study of Mus musculus with 36 samples.

Results

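Mouse bone marrow-derived macrophages (BMDM) whose genotype is labelled NOS1 KO were compared after 8 h and after 2 h of lipopolysaccharide (LPS), the bacterial cell wall product that Toll-like receptor 4 senses. The comparison was made up of the count files of every library with a genotype label of NOS1 KO or BMDM NOS1 KO and an LPS treatment label, which gave 6 libraries at 8 h and 6 at 2 h, 12 of the 36 libraries of the series. The other libraries used here were 6 KO-labelled controls and 18 libraries labelled WT (C65BL6, as the study's design spells it), at the same times and in the same numbers per group. All cells were differentiated from marrow in 5 days of culture, with macrophage colony-stimulating factor at 20 ng/mL, and LPS was given at 100 ng/mL. The labels do not give the strain of the KO mice, the number of animals or whether the libraries came from separate cultures. The p-values below therefore rest on the spread between libraries. This spread includes a split into 2 sets of libraries, described below, and within a set it may be technical only.

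Nos1, the gene of neuronal nitric oxide synthase named in the KO label (ENSMUSG00000029361, chromosome 5, 117781032 to 117958840, mm10), went against that label. Its level was 1.01 to 2.06 CPM (counts scaled to library size) in the KO-labelled 8 h libraries and 2.35 to 4.11 CPM in the KO-labelled 2 h libraries, whereas the WT-labelled libraries reached at most 0.855 CPM at 8 h and 0.300 CPM at 2 h. The labels do not give the deleted part of the gene, to which counts over the whole gene need not refer, and the libraries are named by their labels throughout. Total counts were 11458351 to 14519420 per 8 h library and 10134098 to 13293628 per 2 h library. Summed over 10 macrophage markers, the level was 18688 to 21454 CPM at 8 h and 16770 to 18396 CPM at 2 h (5 called higher, 1 lower). Markers of other cell types were far lower, and those of several types moved. Summed neutrophil markers were at 55.1 to 149 CPM at 8 h against 82.9 to 228 CPM at 2 h (0 of 11 tested called higher, 3 lower), and summed stromal markers at 35.3 to 51.7 CPM against 18.4 to 33.7 CPM (2 of 6 tested called higher, 0 lower). Mast cell and basophil markers summed to 0.664 to 3.06 CPM at 8 h against 6.03 to 10.5 CPM at 2 h (2 of 2 tested lower), with the IgE receptor gene Fcer1a at 0 in all 12 libraries, and B cell markers to 5.83 to 19.3 CPM against 13.5 to 44.5 CPM (2 of 3 lower). Dendritic cell markers summed to 10.1 to 17.9 CPM against 6.80 to 12.3 CPM (2 of 5 higher, 1 lower) and endothelial markers to 113 to 222 CPM against 94.2 to 285 CPM (2 of 3 higher, 1 lower). T and NK cell markers summed to 3.62 to 10.9 CPM against 5.68 to 14.9 CPM, with Cd3e at 0 throughout, and none of their tested members was called, nor of those of eosinophils, erythroid cells with megakaryocytes, and skeletal muscle. The part of these cells in the results was not tested. In each group replicates 1, 2 and 6 (set A) stood apart from replicates 3, 4 and 5 (set B), a split found from the counts and not given by the labels. In the 12 libraries the first principal component, with 72.7% of the variance, separated 8 h from 2 h, and the second, with 13.6%, separated the sets.

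Macrophages answer LPS in waves. Transcription factors of the NF-kB and AP-1 families act within minutes on primary targets such as cytokines, chemokines and their own inhibitors. Interferon beta made in this first wave then binds its receptor on the same cells and, through factors such as STAT2 and IRF9, switches on a second wave of antiviral and antigen-presenting genes, while the cells stop dividing and rearrange their metabolism. The comparison of 8 h with 2 h asks which transcripts are higher late and which belong to the early part of this response.

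The 8 h and 2 h libraries differed broadly. Of 12957 genes tested, 8453 (65.2%) passed an adjusted p of 0.05 in edgeR's quasi-likelihood test with Benjamini-Hochberg adjustment, which is what "called", "rose" and "fell" mean below. Of these, 4082 (31.5% of those tested) were higher at 8 h and 4371 (33.7%) were lower. Counts of list members below are to be read beside these shares. The change was at least 2-fold (a log2 fold change of 1 or more) for 1924 higher and 2245 lower genes, and at least 3 on the log2 scale for 356 and 288. All 6 libraries at 8 h lay above all 2 h libraries for 2988 genes (23.1%) and below them for 2797 genes (21.6%). The split between directions depends on scaling. With TMM scaling the median change over all genes was -0.04, whereas with library totals alone it was -0.57, with 2170 genes called higher and 7755 lower. All changes below are relative to TMM scaling, and in bulk libraries fewer cells of a type and less RNA per cell cannot be told apart.

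**Figure D1:**
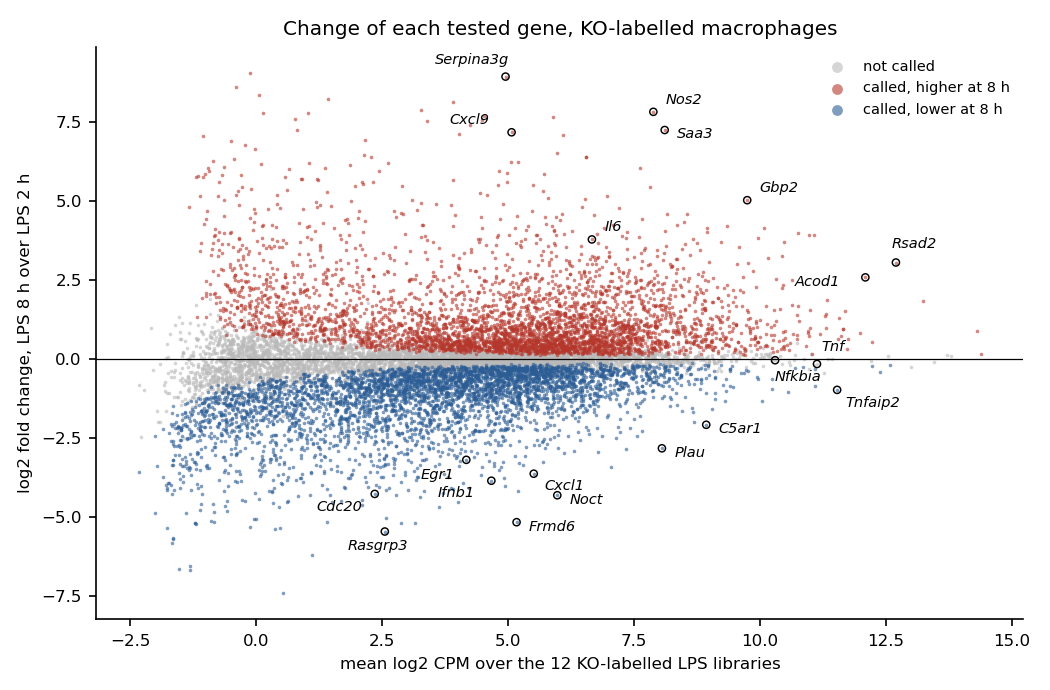
Each point is 1 of 12957 tested genes, placed by its mean log2 CPM over the 12 KO-labelled LPS libraries (x axis) and its log2 fold change, LPS 8 h over LPS 2 h (y axis). Red points were called higher at 8 h (4082 genes), blue points lower (4371 genes), and circled genes are described in the text.

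Interferon-induced genes rose at 8 h almost without exception, while interferon beta itself fell. Ifnb1, which encodes it, had 4.17, 6.35 and 11.5 CPM (lowest, median and highest of 6 libraries, the order used for all such triplets) at 8 h, against 68.3, 100.4 and 139.7 CPM at 2 h. No 8 h library reached the lowest 2 h library, and the control median was 0.180 CPM. The log2 fold change was -3.85 ± 0.33 (SE; adjusted p = 4.14e-12). The chains of its receptor were called slightly higher, with log2 fold changes of 0.44 ± 0.12 for Ifnar1 and 0.74 ± 0.13 for Ifnar2, and the first turned to -0.086 with library totals alone. Of the receptor for interferon gamma, the ligand-binding chain Ifngr1 fell (-2.16 ± 0.14) and the signalling chain Ifngr2 rose (1.48 ± 0.10).

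All 39 tested genes of a list of 40 interferon-induced antiviral effectors rose. Their median log2 fold change was 2.86, where that of all tested genes was -0.04. Rsad2, which encodes viperin, an enzyme that makes a chain-terminating nucleotide, had 14682, 18631 and 25586 CPM at 8 h, against 1459.8, 2465 and 2824 CPM at 2 h. Its neighbour in that reaction, the nucleotide kinase gene Cmpk2, had 5475, 7099 and 9167 CPM at 8 h, against 186, 498 and 591 CPM at 2 h. For both, every 8 h library lay above every 2 h library, and the log2 fold changes were 3.05 ± 0.40 and 3.99 ± 0.38 (adjusted p = 3.49e-08 and 4.10e-11). Rsad2 gained more CPM than any other called gene. Ifit2, which binds foreign RNA, stood at a mean of 8922 CPM at 8 h and 591 CPM at 2 h, and Mx1, a GTPase that traps viral particles, at 4961 and 281 CPM (3.91 ± 0.49 and 4.14 ± 0.48). The largest rises of the list were those of Ifit1bl1 (6.38 ± 0.46), Ifi44 (5.85 ± 0.70) and the exonuclease gene Isg20 (5.31 ± 0.36). Isg15, a ubiquitin-like modifier, rose less (2.99 ± 0.39).

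The guanylate-binding proteins and immunity-related GTPases, which attack the vacuoles that hold intracellular microbes, had a larger median. All 19 tested genes of 20 listed rose, and the median was 4.79. Iigp1 had 779.7, 886 and 1262 CPM at 8 h, against 0.897, 4.81 and 8.08 CPM at 2 h. The control median was 1.11 CPM, and the 8 h libraries stood far apart from the 2 h libraries, with a log2 fold change of 7.65 ± 0.53 (adjusted p = 1.26e-14). Gbp2 had 3929.8, 4589 and 6493 CPM at 8 h, against 96.3, 162 and 180.0 CPM at 2 h (5.02 ± 0.31). Gbp4 (7.54 ± 0.46) and Tgtp1 (6.18 ± 0.39) share sequence or genomic overlap with neighbouring family members, so that their reads may be split between copies.

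Promoters were searched for the interferon-stimulated response element, the site that STAT2 and IRF9 bind as parts of one complex. Windows of 300 bases (250 before and 50 after the start of the gene) were taken from RefSeq (GRCm38.p6), in which 9768 of the 12957 tested genes matched with 12434 promoters. The core GAAANNGAAA, read on both strands, occurred in 3.36% of all these promoters. It occurred in 48.7% of the promoters of the antiviral effectors (19 of 39 promoters, from 31 genes). For the GTPases it occurred in 83.3% (10 of 12 promoters, from 11 genes). Not every tested gene of these lists therefore had a promoter here. By size of change it occurred in 19.6% of promoters of genes that rose by 3 or more on the log2 scale, in 6.22% for rises of 1 to 3, in 2.51% for genes that were not called and in 1.53% for falls of 3 or more. The windows of Rsad2 (chr12:26456403-26456702, minus strand), Gbp2 (chr3:142620413-142620712, plus strand) and Cxcl10 (chr5:92348840-92349139, minus strand) show the core in 3 genes of the interferon response, with the match in capitals on whichever strand it was found:
Rsad2: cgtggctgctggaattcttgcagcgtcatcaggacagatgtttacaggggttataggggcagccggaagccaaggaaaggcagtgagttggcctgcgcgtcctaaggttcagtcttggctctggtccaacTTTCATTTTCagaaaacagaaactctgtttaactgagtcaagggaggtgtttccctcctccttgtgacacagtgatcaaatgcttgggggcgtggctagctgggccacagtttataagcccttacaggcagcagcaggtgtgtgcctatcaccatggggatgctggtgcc
Gbp2: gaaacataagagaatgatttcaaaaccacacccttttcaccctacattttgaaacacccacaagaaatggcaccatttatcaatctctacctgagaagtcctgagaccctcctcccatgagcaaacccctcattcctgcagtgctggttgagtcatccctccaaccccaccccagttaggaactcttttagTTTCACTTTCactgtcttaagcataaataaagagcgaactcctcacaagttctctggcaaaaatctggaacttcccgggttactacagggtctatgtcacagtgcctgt
Cxcl10: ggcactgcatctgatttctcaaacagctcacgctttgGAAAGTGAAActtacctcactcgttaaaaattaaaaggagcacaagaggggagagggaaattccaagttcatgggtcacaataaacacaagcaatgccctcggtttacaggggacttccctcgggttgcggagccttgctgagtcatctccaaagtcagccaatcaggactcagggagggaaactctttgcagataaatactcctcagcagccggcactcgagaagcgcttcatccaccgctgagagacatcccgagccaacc

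Of 19 genes of the IRF and STAT transcription factors and the JAK kinases, 14 rose and 3 fell. Irf7, the factor that amplifies interferon production, had 2524, 3363 and 3971 CPM at 8 h, against 38.1, 183 and 316 CPM at 2 h. Even the lowest 8 h library was several times above the highest 2 h library (4.20 ± 0.60, adjusted p = 2.27e-07). Stat2 (3.27 ± 0.26), Stat3, which transmits interleukin-6 and interleukin-10 signals (3.14 ± 0.17), and Irf8 (2.41 ± 0.21) also rose. Irf4 (-2.63 ± 0.32) and Stat6, both known from the response to interleukin-4, fell (Stat6 -0.89 ± 0.07). Irf1, an early factor, had a median of 708 CPM at 8 h and 714 CPM at 2 h, against 30.4 CPM in controls. Its ranges overlapped, and a change was not called (0.01 ± 0.18, adjusted p = 0.951).

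Sensors and antigen presentation followed the same direction. Of 16 nucleic acid sensors, 12 rose and 1 fell, with Tlr3, the endosomal receptor of double-stranded RNA, at 289, 304 and 316 CPM at 8 h, against 9.27, 15.2 and 17.3 CPM at 2 h (4.41 ± 0.22). Zbp1, a sensor that can start necroptosis (4.22 ± 0.56), Ddx58, which encodes RIG-I (3.58 ± 0.31), and Ifi205 of the DNA-binding HIN-200 family (3.67 ± 0.38) rose as well. In the MHC class I pathway 16 of 19 members rose and none fell. The class I transactivator Nlrc5 had 521, 653 and 860.2 CPM at 8 h, against 24.6, 41.8 and 59.3 CPM at 2 h, and the peptide transporter gene Tap1 had 1250.3, 1273 and 1458 CPM, against 46.4, 115 and 144 CPM. Neither gene had overlapping ranges (4.01 ± 0.26 and 3.62 ± 0.24), though Tap1 overlaps Psmb9 in the genome. The heavy chain gene H2-K1 and B2m, which encodes the light chain, rose by 1.38 ± 0.15 and 1.52 ± 0.17 on the log2 scale, and H2-T22 rose by 3.43 ± 0.19. Of 8 immunoproteasome genes 7 rose, led by the catalytic subunit genes Psmb10 (2.96 ± 0.13) and Psmb9 (2.55 ± 0.16). The 31 constitutive proteasome subunits had a median of only 0.34, which turned to -0.19 with library totals alone.

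Of 14 tested MHC class II genes, 7 rose and 1 fell; with library totals alone 2 were called in each direction. Ciita, the class II transactivator, had 4.12, 19.8 and 24.5 CPM at 8 h, against 3.59, 7.95 and 11.3 CPM at 2 h. The ranges overlapped, and the log2 fold change was 1.17 ± 0.40 (adjusted p = 0.0103). H2-Ab1 (1.62 ± 0.59) and the invariant chain gene Cd74 (1.15 ± 0.51, adjusted p = 0.0469) overlapped in the same way. The call of Cd74 was lost without any 1 of replicates 3, 4 and 5 at 8 h or of replicates 1, 2 and 6 at 2 h, with adjusted p values of 0.0894 to 0.109. Library totals alone ended the calls of Ciita (0.64, adjusted p = 0.146), H2-Ab1 (1.09, adjusted p = 0.0933) and Cd74 (0.62, adjusted p = 0.268).

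**Figure D2:**
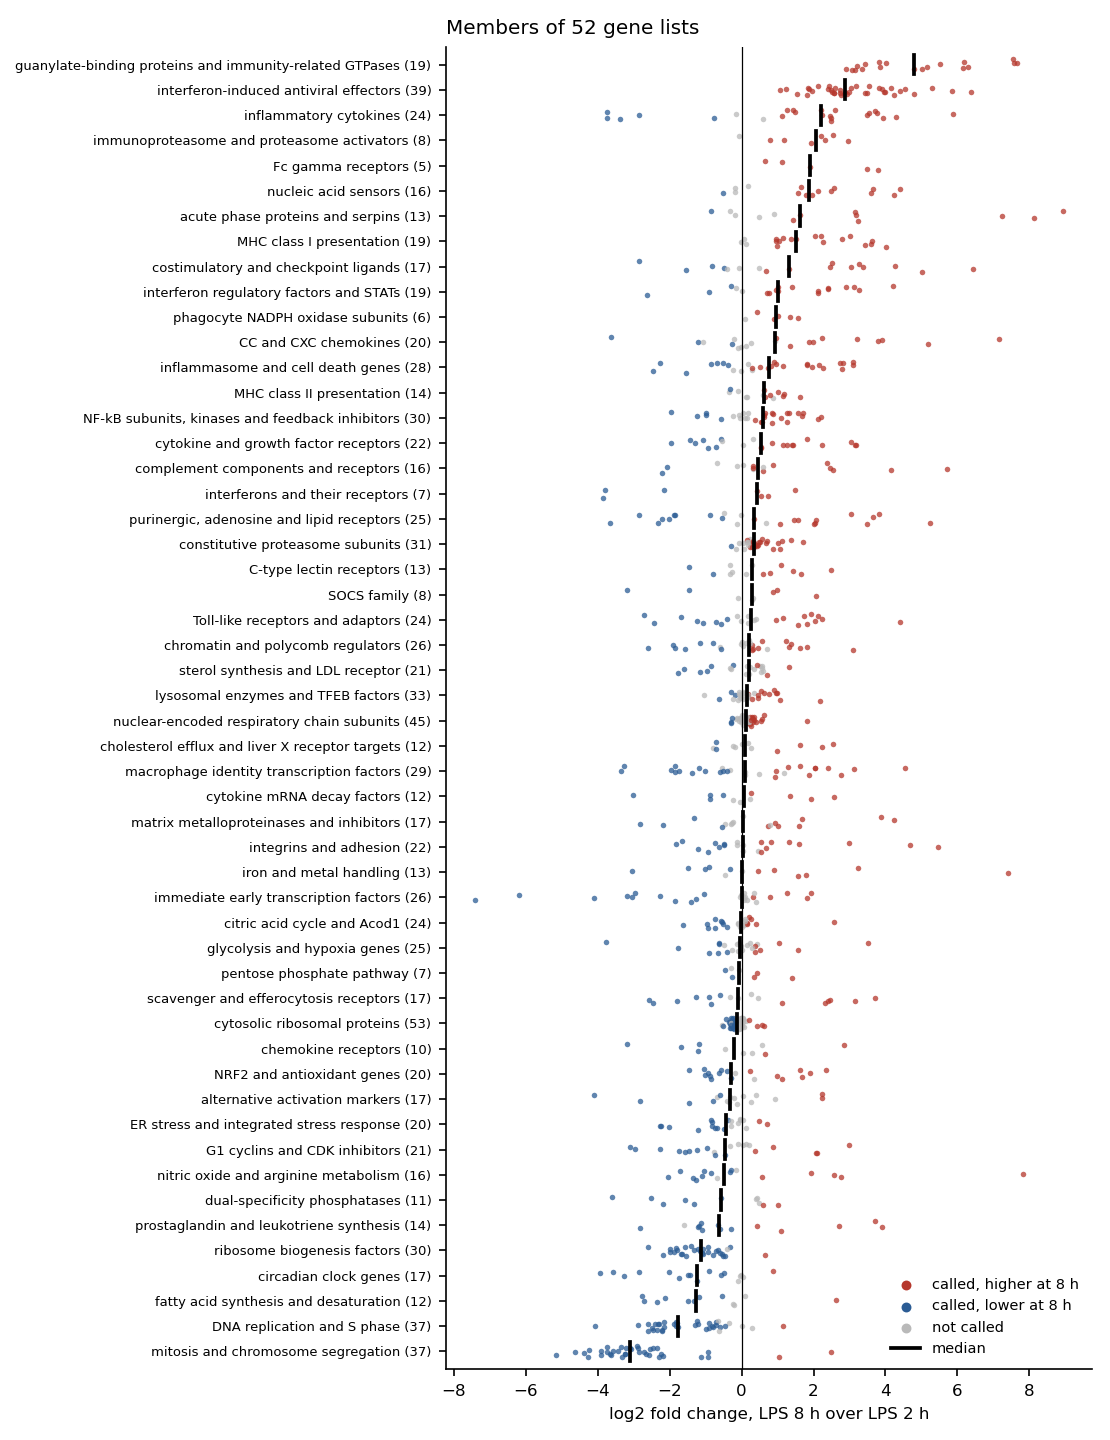
Each row is 1 of 52 gene lists with the number of tested members in brackets, ordered by median, and each point is a member placed by its log2 fold change, LPS 8 h over LPS 2 h. Red points were called higher at 8 h, blue points lower and grey points not called; the black bar is the list's median, which runs from 4.79 for the GTPases to -3.11 for mitosis.

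Several effector molecules of activated macrophages were far higher at 8 h. Nos2, the inducible nitric oxide synthase, had 3113, 3968 and 4683 CPM at 8 h, against 4.78, 16.8 and 28.7 CPM at 2 h, and the control median was 0.330 CPM. No library was intermediate, and the log2 fold change was 7.81 ± 0.52 (adjusted p = 4.67e-15). Genes that supply its substrate and cofactor rose with it, namely the arginine transporter Slc7a2 (2.77 ± 0.36), Ass1, which rebuilds arginine from citrulline (2.56 ± 0.30), and Gch1, the first enzyme of tetrahydrobiopterin synthesis (1.94 ± 0.13). Over the 16 tested genes of nitric oxide and arginine metabolism, however, 5 rose and 9 fell. Those that fell included Odc1, the polyamine-forming ornithine decarboxylase (-1.27 ± 0.27), and Slc7a1, the other arginine transporter (-1.70 ± 0.31). Arginase 1 (Arg1) had a median of 1.13 CPM at 8 h and 2.17 CPM at 2 h, and a change was not called (-0.69 ± 1.03, adjusted p = 0.578). These medians lie between the sets. Within set B Arg1 was called lower, with 1.96 to 3.54 CPM at 8 h, against 4.20 to 5.50 CPM at 2 h (-0.75, adjusted p = 0.0180). Set A had at most 0.302 CPM at either time, without a call (0.80, adjusted p = 0.426). The difference between the sets was not called (adjusted p = 0.237).

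Acod1, which diverts a citric acid cycle intermediate into itaconate, had 9250.0, 10836 and 12048 CPM at 8 h, against 1068, 1880.1 and 2376 CPM at 2 h. It was the fourth largest gain in CPM after Rsad2, Actb and Fth1 (2.58 ± 0.35). Of the 24 genes of the citric acid cycle list, Acod1 included, 6 rose (25%) and 9 fell (37.5%), beside 31.5% and 33.7% of all tested genes. Idh1 fell most (-1.62 ± 0.23). Saa3, an acute phase apolipoprotein, had 886, 4133 and 6979.9 CPM at 8 h, against 12.6, 25.3 and 43.3 CPM at 2 h. The 8 h libraries were spread over a wide range, with the set A libraries low and the set B libraries high, but all lay far above 2 h (7.24 ± 0.66). The protease inhibitors Serpina3g and Serpina3f had the largest rises under the naming rule, with 569, 718 and 1033 CPM at 8 h, against 0.292, 1.46 and 2.98 CPM at 2 h for the first (8.93 ± 0.48 and 8.13 ± 0.45). They are close copies of each other, so that their reads may be split.

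Genes of prostaglandin synthesis moved both ways. Ptgs2 (cyclooxygenase 2) had 2051, 2189.9 and 2633 CPM at 8 h, against 93.7, 158 and 268 CPM at 2 h, and Ptges, which makes prostaglandin E2, had 123, 189 and 258 CPM, against 10.1, 12.1 and 15.3 CPM. Both were separate in every library (3.70 ± 0.28 and 3.92 ± 0.27), while 8 of 14 genes of the wider prostaglandin and leukotriene list fell and 5 rose. Ptger2, a receptor of prostaglandin E2, fell (-3.65 ± 0.27). Of the 6 NADPH oxidase subunits 5 rose, among them Cybb, the membrane catalytic subunit (1.56 ± 0.10). The mitochondrial superoxide dismutase gene Sod2 rose (1.69 ± 0.10), and so did Keap1, the inhibitor of NRF2 (2.34 ± 0.11), while 10 of 20 NRF2 and antioxidant genes fell. In iron handling, the ferroxidase gene Cp had 125, 262 and 291 CPM at 8 h, against 0.612, 1.31 and 2.53 CPM at 2 h, with replicate 2 of the 8 h group far below the other libraries (7.41 ± 0.27). The siderophore-binding Lcn2 rose (3.24 ± 0.59) and ferritin heavy chain Fth1 rose slightly (0.90 ± 0.09; 0.37 with library totals alone), whereas the iron exporter Slc40a1 (-3.06 ± 0.66) and the transferrin receptor Tfrc (-1.01 ± 0.34) fell.

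Cytokine genes moved both ways. Of 24 tested, 17 rose and 5 fell. Il6 had 331, 402 and 497 CPM at 8 h, against 11.4, 28.9 and 47.3 CPM at 2 h, with all 8 h libraries above all 2 h libraries (3.78 ± 0.29, adjusted p = 1.71e-13). Il12b, the shared subunit of interleukins 12 and 23, had 229, 676 and 1044 CPM, against 59.1, 143 and 226 CPM (2.20 ± 0.39). Il18 (3.92 ± 0.17), Il1b (1.497 ± 0.31), Csf3 (4.31 ± 0.73) and the death ligand Tnfsf10 (5.89 ± 0.49) also rose. Il1rn, the interleukin-1 receptor antagonist, had 2166, 5759 and 9619 CPM at 8 h, against 327, 430.1 and 582 CPM at 2 h (3.71 ± 0.39). Tnf was not called. It had 1426, 2096 and 3164 CPM at 8 h and 2233, 2380.5 and 2785 CPM at 2 h, in overlapping ranges that were both far above the control median of 23.5 CPM (-0.16 ± 0.18, adjusted p = 0.443). The sets differed here. In set B Tnf was lower at 8 h without overlap (1426 to 1465 CPM, against 2233 to 2272 CPM at 2 h). In set A its ranges overlapped (2727 to 3164 CPM at 8 h and 2489 to 2785 CPM at 2 h). The genes that fell were Csf2 (-3.76 ± 0.41), Il23a, the specific subunit of interleukin 23 (-3.73 ± 0.39), Lif (-3.37 ± 0.29), the costimulatory ligand Tnfsf9 (-2.84 ± 0.33) and Csf1 (-0.78 ± 0.22). Il23a reached only 0.111, 0.319 and 0.614 CPM at 8 h, against 3.70, 5.16 and 5.96 CPM at 2 h. Il10 was called higher (1.25 ± 0.41, adjusted p = 0.00822), but the change was -0.62 within set A and 2.76 within set B, a difference that passed its own test (adjusted p = 5.86e-09).

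Among 20 tested chemokines 10 rose and 3 fell. Those that attract activated T cells through CXCR3 were higher at 8 h than at 2 h: Cxcl9 had 298, 358 and 613 CPM at 8 h, against 1.35, 2.88 and 4.53 CPM at 2 h (7.17 ± 0.46), and Cxcl11 rose by 3.80 ± 0.38 on the log2 scale. Cxcl10, the third of them, had a median of 4966 CPM at 8 h, against 1418 CPM at 2 h and 2.52 CPM in controls (1.87 ± 0.27). Ccl5 had 6939, 7924 and 8983 CPM at 8 h, against 391.5, 542 and 572 CPM at 2 h, and Ccl8 had 112, 162 and 195 CPM, against 1.17, 4.81 and 6.90 CPM (3.91 ± 0.33 and 5.19 ± 0.52). Cxcl1 and Cxcl2, which attract neutrophils, fell. Cxcl1 had 9.95, 11.8 and 21.01 CPM at 8 h, against 135, 166 and 179.8 CPM at 2 h (-3.63 ± 0.27), and Cxcl2 had 146, 235 and 399 CPM, against 461, 584 and 766 CPM (-1.22 ± 0.33). Cxcl3, a close relative, was not called (-1.08 ± 0.49, adjusted p = 0.0513). Ccl4 was barely lower (-0.27 ± 0.12, adjusted p = 0.0442), and its call was lost without any 1 of replicates 1, 3, 4 and 5 at 8 h or of replicates 3, 4 and 5 at 2 h, with adjusted p values of 0.0641 to 0.108.

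**Figure D3:**
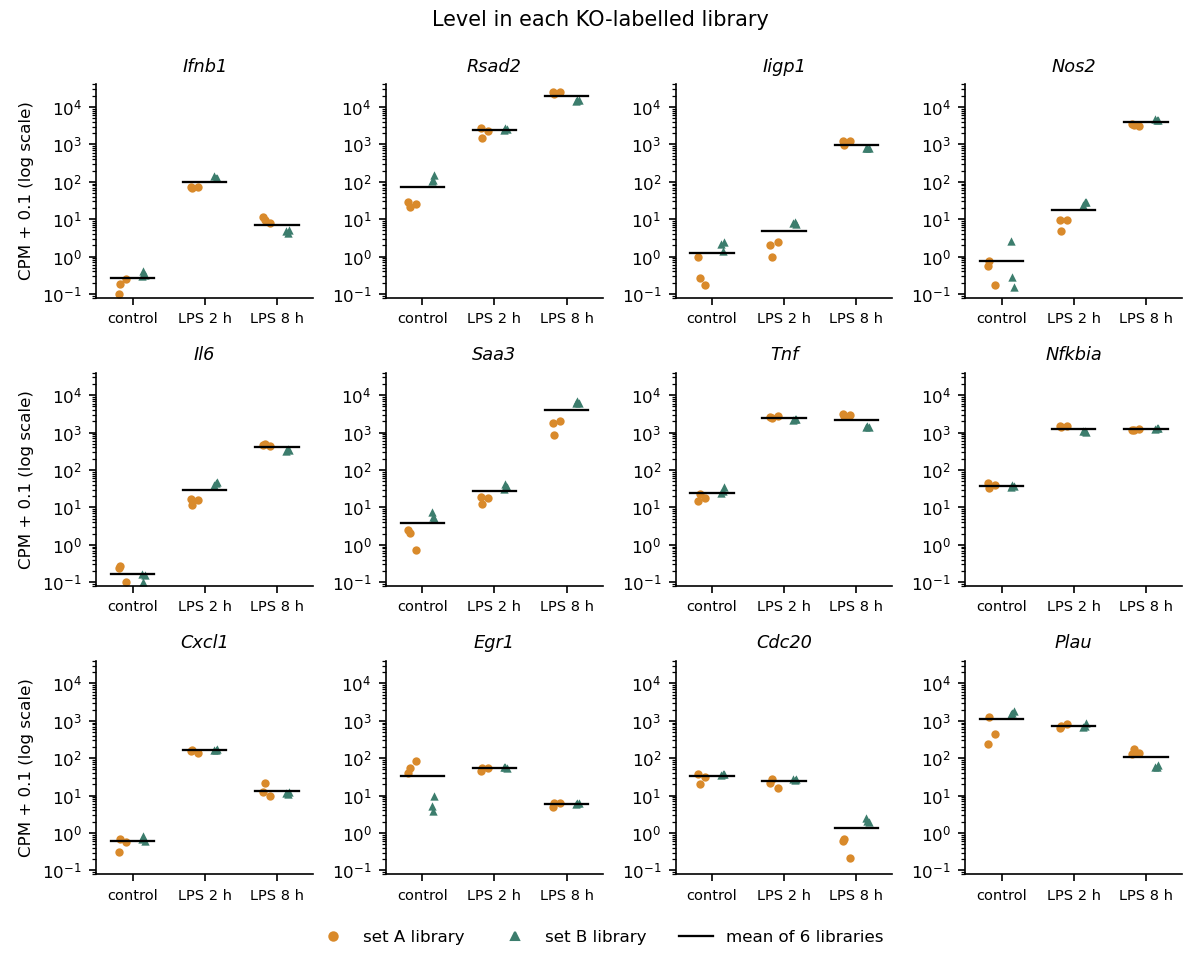
Each panel gives 1 gene's level in the 18 KO-labelled libraries as CPM plus 0.1 on a log axis, for control, LPS 2 h and LPS 8 h. Circles are set A libraries, triangles set B libraries and bars the mean of 6 libraries; Ifnb1, Cxcl1 and Egr1 are highest at 2 h among the LPS libraries, Tnf and Nfkbia overlap between LPS times, and Rsad2, Iigp1, Nos2, Il6 and Saa3 are highest at 8 h.

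Of 30 genes of the NF-kB pathway 18 rose and 5 fell. Nfkbia, the inhibitor that NF-kB induces, had 1185, 1243 and 1345 CPM at 8 h and 1060.1, 1258 and 1548 CPM at 2 h, against a control median of 38.01 CPM. The ranges overlapped, a change was not called (-0.04 ± 0.10, adjusted p = 0.744), and set A gave -0.32 where set B gave 0.27 (adjusted p of the difference = 4.07e-04). Rela, the activating subunit, was also not called (0.05 ± 0.12, adjusted p = 0.740), and Rel fell (-0.57 ± 0.13). Traf1, a signalling adaptor, had 536, 737 and 913 CPM at 8 h, against 78.5, 157 and 242 CPM at 2 h, with a log2 fold change of 2.20 ± 0.29. Rnf31, the catalytic subunit of the linear ubiquitin ligase, rose by 2.14 ± 0.15 but overlaps Irf9 in the genome. The atypical inhibitors Nfkbid (-1.97 ± 0.18) and Nfkbiz (-1.25 ± 0.14) fell. Tnfaip2, a tumour necrosis factor-induced gene, lost the most CPM of the genes under the naming rule, with 1423, 2082 and 3092 CPM at 8 h, against 3474, 3885 and 5598 CPM at 2 h (-0.98 ± 0.19).

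Of 26 immediate early genes, which respond to a stimulus without new protein synthesis, 5 rose and 11 fell. Egr1 had 4.81, 6.08 and 6.34 CPM at 8 h, against 46.2, 54.6 and 57.4 CPM at 2 h, and Egr2 had 3.42, 4.88 and 5.80 CPM, against 52.7, 73.5 and 116 CPM. Every 8 h library lay far below every 2 h library for both (-3.19 ± 0.60 and -4.09 ± 0.29). Controls had 39.9 to 85.5 CPM of Egr1 in set A and 3.82 to 9.39 CPM in set B, so its 2 h level stood above all controls in set B only. Myc (-1.85 ± 0.25) and Fosl1 (-3.05 ± 0.40) fell as well. Myc had 28.6 to 58.3 CPM at 2 h, within the 19.5 to 62.0 CPM of controls. Fos had a median of 27.9 CPM at 8 h and 26.2 CPM at 2 h, both under the control median of 54.2 CPM, and was not called (0.01 ± 0.28, adjusted p = 0.979). Zfp36, whose product tristetraprolin destabilises cytokine transcripts, rose (1.93 ± 0.18), and so did Ier3 (1.82 ± 0.32). Of 11 dual-specificity phosphatases, which switch off MAP kinases, 6 fell, among them Dusp4 (-2.52 ± 0.22), Dusp5 (-2.19 ± 0.44) and Dusp14 (-3.60 ± 0.39), and Dusp2 rose (1.02 ± 0.23). Of 12 RNA-binding regulators of cytokine messages, 4 rose and 4 fell (33.3% each), near the 31.5% and 33.7% of all tested genes. Arid5a, which protects Il6 mRNA, was higher (2.56 ± 0.20) and Zfp36l1, which promotes mRNA decay, was lower (-3.02 ± 0.40).

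Among the SOCS genes, whose products block cytokine receptors and which the series title concerns, 3 of 8 rose (37.5%) and 2 fell (25%). Of all tested genes 31.5% rose and 33.7% fell. Socs1 had 68.6, 92.7 and 95.9 CPM at 8 h, against 6.87, 22.7 and 29.7 CPM at 2 h and a control median of 1.803 CPM. Every 8 h library was above every 2 h library (2.06 ± 0.24, adjusted p = 5.02e-09). Socs3 had 804, 1245 and 1640.2 CPM at 8 h, against 580.1, 608 and 893 CPM at 2 h. Its ranges overlapped, and set A gave 0.23 where set B gave 1.42 (pooled 0.87 ± 0.22; adjusted p of the set difference = 1.92e-04). Cish, which answers STAT5, was an early gene with 2.66, 3.13 and 5.24 CPM at 8 h, against 20.8, 31.9 and 38.5 CPM at 2 h (-3.18 ± 0.25), and Socs5 fell (-1.46 ± 0.14).

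Surface receptors moved both ways. Of 24 Toll-like receptor and adaptor genes 10 rose (41.7%) and 8 fell (33.3%), beside 31.5% and 33.7% of all tested genes. Tlr2, which senses bacterial lipopeptides, fell to 188, 233 and 254 CPM at 8 h, against 564, 744 and 859.7 CPM at 2 h (-1.69 ± 0.16), whereas its partner Tlr1 (2.24 ± 0.16) and the adaptor Myd88 (2.03 ± 0.10) rose. All 5 genes of the Fc gamma receptor list, which includes the signalling chain gene Fcer1g, rose (4 with library totals alone). The high-affinity receptor gene Fcgr1 had 1369, 1698 and 1889 CPM at 8 h, against 52.5, 119 and 190.2 CPM at 2 h (3.79 ± 0.32), and Fcgr4 rose by 3.49 ± 0.24 on the log2 scale. The complement component C3 had 1609, 2392 and 2833 CPM at 8 h, against 42.1, 128 and 217 CPM at 2 h (4.15 ± 0.39), while the C5a receptor C5ar1 had 192, 237 and 295 CPM, against 917, 981 and 1154 CPM (-2.08 ± 0.11). Of the ligands shown to T cells, 10 of 17 rose and 4 fell. Cd274, which encodes the checkpoint ligand PD-L1, had 3680.4, 4264 and 5115 CPM at 8 h, against 367.8, 412 and 598 CPM at 2 h (3.25 ± 0.23), and the costimulatory gene Cd86 rose by 3.37 ± 0.22. Among cell death genes 17 of 28 rose, including Casp1, the inflammasome protease (2.83 ± 0.16), and Mlkl, the executor of necroptosis (3.10 ± 0.20). Nlrp3, the inflammasome sensor, was slightly lower (-0.38 ± 0.14, adjusted p = 0.0207) with a call lost without any 1 of replicates 3, 4 and 5 at 8 h or of replicates 1 and 6 at 2 h (adjusted p of 0.0538 to 0.0682), and the proapoptotic Bcl2l11 fell (-2.28 ± 0.32).

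Of the 52 lists, that of mitosis had the lowest median. Of its 37 genes, which cover mitosis and chromosome segregation, 35 fell and 2 rose (median -3.11). Cdk1, the kinase that starts mitosis, had 6.52, 12.2 and 16.5 CPM at 8 h, against 42.7, 85.6 and 99.7 CPM at 2 h, and controls had a median of 89.5 CPM. Cdc20, an activator of the anaphase-promoting complex, had 0.111, 1.24 and 2.48 CPM at 8 h, against 16.1, 26.6 and 28.3 CPM at 2 h. Every 8 h library lay below every 2 h library for both (-2.72 ± 0.29 and -4.27 ± 0.36). The cytokinesis gene Anln (-5.17 ± 0.44), the kinetochore gene Cenpf (-4.63 ± 0.35), the central spindle motor Kif23 (-4.38 ± 0.32) and cyclin A2 (Ccna2, -4.23 ± 0.46) fell as well. The exceptions were securin, Pttg1 (2.48 ± 0.16), and the spindle assembly factor Tpx2 (1.05 ± 0.24). Of 37 genes of DNA replication 31 fell and 1 rose, among them Rrm2, a subunit of ribonucleotide reductase (-4.07 ± 0.45), the helicase subunit Mcm2 (-2.87 ± 0.44) and Uhrf1 (-2.60 ± 0.50); Rfc3 was the exception (1.16 ± 0.20). Ccnd2, a G1 cyclin, rose instead (2.998 ± 0.25), and the CDK inhibitor Cdkn2c fell (-2.96 ± 0.20).

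The cell cycle homology region (CHR), TTTGAA on either strand, is the element through which the DREAM and MuvB complexes control genes of late cell cycle phases. It occurred in 12.3% of all promoters, in 71.9% of those of the mitosis list (23 of 32) and in 11.1% of those of the replication list. Among all genes that fell by 3 or more it occurred in 19.2% of promoters, and among those that rose by 3 or more in 19.3%. In windows of the 150 bases from 100 before to 50 after the start the shares were 15.3% and 7.50%, beside 68.8% in the mitosis list and 4.79% of all promoters. The windows of Cdk1 (chr10:69352863-69353162, minus strand), Cdc20 (chr4:118437294-118437593, minus strand) and Kif23 (chr9:61946750-61947049, minus strand) show these letters in capitals for 3 genes of the list:
Cdk1: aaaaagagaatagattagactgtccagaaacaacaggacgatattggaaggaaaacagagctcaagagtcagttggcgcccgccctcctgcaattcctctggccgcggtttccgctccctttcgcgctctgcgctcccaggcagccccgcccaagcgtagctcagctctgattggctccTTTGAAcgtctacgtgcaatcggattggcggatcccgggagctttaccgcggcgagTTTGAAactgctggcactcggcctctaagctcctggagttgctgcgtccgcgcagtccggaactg
Cdc20: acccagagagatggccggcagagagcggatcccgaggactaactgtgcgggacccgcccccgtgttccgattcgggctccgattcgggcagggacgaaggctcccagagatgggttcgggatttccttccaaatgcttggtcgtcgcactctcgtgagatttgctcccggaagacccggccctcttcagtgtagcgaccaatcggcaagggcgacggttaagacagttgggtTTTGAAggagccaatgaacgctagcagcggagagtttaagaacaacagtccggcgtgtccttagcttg
Kif23: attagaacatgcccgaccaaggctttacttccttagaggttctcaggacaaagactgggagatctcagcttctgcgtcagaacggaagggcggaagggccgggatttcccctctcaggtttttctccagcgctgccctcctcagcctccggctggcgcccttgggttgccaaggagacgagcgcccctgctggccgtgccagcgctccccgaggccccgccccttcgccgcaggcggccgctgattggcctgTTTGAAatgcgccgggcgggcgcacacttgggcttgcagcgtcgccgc

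Genes of growth and fatty acid synthesis were mostly lower. Of 30 ribosome biogenesis factors 28 fell and 1 rose (median -1.13), among them the snoRNP protein gene Nop58 (-2.61 ± 0.28) and Polr1b, a subunit of RNA polymerase I (-2.17 ± 0.22); Wdr43 was the exception (0.66 ± 0.19). The 53 cytosolic ribosomal proteins had a median of -0.12, smaller than the shift between scalings. Of 12 fatty acid synthesis genes 8 fell, including the desaturases Scd2 (-2.72 ± 0.48) and Fads1 (-2.14 ± 0.11) and the elongase Elovl6 (-2.76 ± 0.33). Acsl1, which activates fatty acids, had 1026, 1060.3 and 1396 CPM at 8 h, against 145, 184 and 241 CPM at 2 h (2.62 ± 0.14). Of 25 genes of glycolysis and the hypoxia response 6 rose (24%) and 7 fell (28%), beside 31.5% and 33.7% of all tested genes. Pfkfb3, which makes the activator of phosphofructokinase, had 378.2, 787 and 1138 CPM at 8 h, against 41.2, 63.5 and 105 CPM at 2 h (3.51 ± 0.41), with a larger rise in set B (4.71) than in set A (2.24; adjusted p of the difference = 6.79e-07). Hk3, a hexokinase of myeloid cells, rose (1.56 ± 0.13) and the hypoxia-induced Adm fell (-3.76 ± 0.34).

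The naming rule also picked large changes mostly outside these lists. Slco3a1, an organic anion transporter, had 750.0, 773 and 822 CPM at 8 h, against 4.71, 5.99 and 6.65 CPM at 2 h, and had the smallest adjusted p of the genes named here (7.09 ± 0.14, adjusted p = 2.66e-29). The chloride channel family gene Clic5 (7.52 ± 0.42), the interleukin-12 receptor chain Il12rb1 (6.94 ± 0.39), the endothelial lipase gene Lipg (6.39 ± 0.37), Ms4a4c (6.50 ± 0.61) and the self-ligand receptor Slamf1 (6.44 ± 0.62) also rose. Olfr56 rose by 7.69 ± 0.35 but overlaps Tgtp1, Tgtp2 and Ifi47 in the genome, so that its reads may belong to those GTPases. Among the falls were Rasgrp3, an exchange factor for Ras (-5.46 ± 0.22), the sialyltransferase St6gal1 (-5.18 ± 0.40), the palmitoyltransferase Zdhhc14 (-5.03 ± 0.30), Arhgap19 (-4.68 ± 0.28) and Nav2 (-4.53 ± 0.17). Some of these genes stood high at 2 h alone: Frmd6, Noct and Phldb1 had medians of 6.02, 14.7 and 8.04 CPM at 8 h, against 202, 296 and 159.6 CPM at 2 h, and of 17.5, 11.0 and 11.2 CPM in controls (-5.16 ± 0.35, -4.31 ± 0.29 and -4.19 ± 0.16). The urokinase gene Plau fell to 58.4, 98.9 and 182 CPM at 8 h, against 647, 723 and 851 CPM at 2 h and a control median of 1389 CPM (-2.83 ± 0.37).

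The 2 library sets shared most of the change and differed in part of it. Within set A 8377 genes were called and within set B 8540, and of 6841 called in both, 6637 moved the same way and 204 opposite ways. The change itself differed between the sets for 2691 genes (20.8%), being higher in set A for 1407 (10.9%) and lower for 1284 (9.91%). The sets were found from these same counts, so this test is not independent of how they were found. Of the 39 antiviral effectors 30 differed; their set A median was 3.46 and their set B median 2.51. For Tnfsf10 the set A change was 8.43 and the set B change 4.79; for the early activation marker Cd69 they were 6.36 and 3.10. Opposite directions were found for Dusp1, a phosphatase of p38, with -1.14 in set A but 2.16 in set B (adjusted p of the difference = 9.96e-13), and for the adaptor Gab1 (-2.28 and 1.07). The labels give no batch that would name these sets, so what set them apart was not tested.

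**Figure D4:**
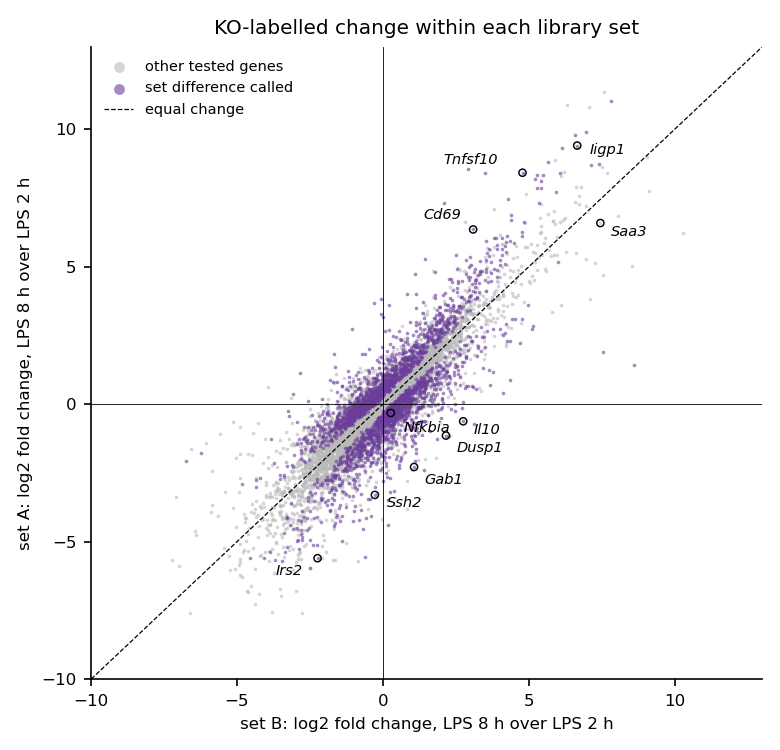
Each point is 1 of 12957 tested genes, placed by its log2 fold change (LPS 8 h over LPS 2 h) within set A of the KO-labelled libraries (y axis) and within set B (x axis); the dashed line marks equal change. Purple points are the 2691 genes whose change differed between the sets, and Il10, Dusp1 and Gab1 lie on opposite sides of 0.

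The same change was measured in WT-labelled macrophages, where 8133 genes (62.8%) were called. Of the calls in both genotype labels, all 7468 had the same direction, which is 88.3% of the KO-labelled and 91.8% of the WT-labelled calls. The log2 fold changes of both labels had a Pearson r of 0.96 across genes, which are no independent replicates. The difference between the labels was tested directly, and 0 of 12957 genes were called by edgeR, with 432 below an unadjusted p of 0.05. DESeq2 and limma-voom had 433 and 328 below it. All are fewer than the share of 0.05 that chance alone would give, in fits without a term for the set. With the set as a term edgeR had 755 below it and 0 called, and with a mean for each group and set 1402 below it. The 0 calls therefore do not show that the labels changed alike. Socs1 changed by 2.06 ± 0.24 in KO-labelled and 1.98 ± 0.24 in WT-labelled libraries, and Nos2 by 7.81 ± 0.52 and 6.84 ± 0.49. Of the differences between labels, set A alone gave 0.89 for Socs1 (adjusted p = 0.999995), whereas -0.60 came from set B alone (adjusted p = 0.00120). For Nos2 neither set alone gave a call (1.85 and 0.62, with adjusted p values of 0.999995 and 0.119), but it was called with a mean for each group and set (1.24, adjusted p = 0.0494).

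The count differed between the sets. Within set B alone 1792 genes differed between the labels, within set A alone 0, and with a mean for each group and set 145. The spread within the sets differed too. Between 2 KO-labelled libraries of a group, the mean chi-square per gene was 2.08 to 3.39 within set B. Within set A it was 4.13 at 8 h and 3.58 at 2 h for replicates 1 and 6, but at least 12.14 for replicate 2 with either. The 0 calls in set A therefore do not show that the labels changed alike there. The part of this spread in the 1792 and 0 calls was not tested. The genes named next were chosen after these values were seen. In set B, Cxcl2 had 146 to 160.2 CPM in KO-labelled 8 h libraries and 461 to 487 CPM in KO-labelled 2 h libraries, against 937 to 1026 CPM in WT-labelled 8 h and 463 to 534 CPM in WT-labelled 2 h libraries. The label difference in its change was -2.63 (log2; adjusted p = 6.49e-14) in set B and -0.38 (adjusted p = 0.999995) in set A. Il1b had a mean of 1533 CPM at 8 h and 498 CPM at 2 h in KO-labelled set B libraries, against 4911 CPM at 8 h and 518 CPM at 2 h in WT-labelled set B libraries (difference -1.64, adjusted p = 5.03e-08; 0.0022, adjusted p = 0.999995, in set A). Cxcl1 and Il1a behaved alike in set B (-2.28 and -1.67), and Il10 went the other way (1.16). Each of these values rests on 3 libraries per group. The spread within a set may be technical only. The 1792 calls and the p-values from set B therefore need not measure variation between animals or cultures.

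**Figure D5:**
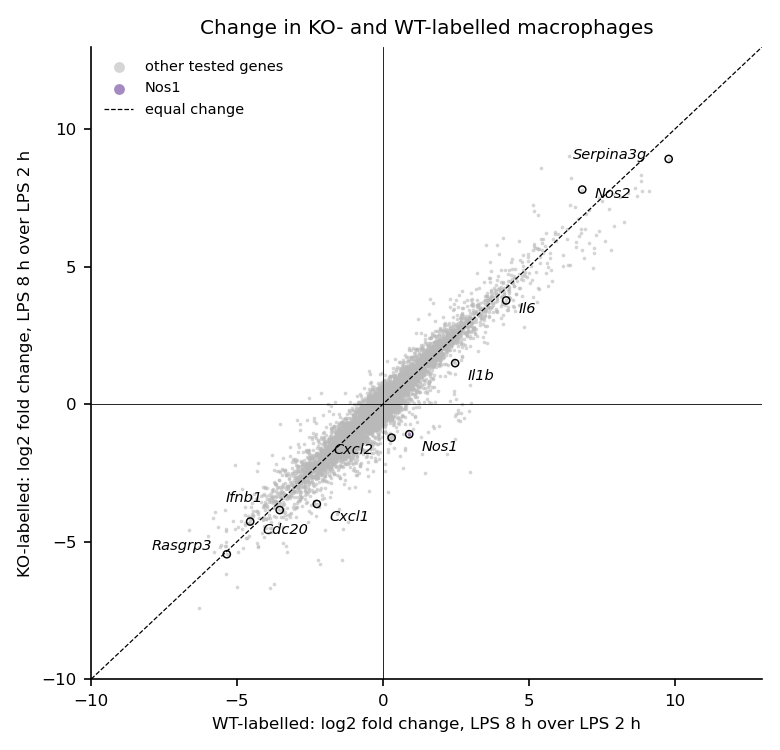
Each point is 1 of 12957 tested genes, placed by its log2 fold change (LPS 8 h over LPS 2 h) in KO-labelled libraries (y axis) and in WT-labelled libraries (x axis); the dashed line marks equal change. Genes lie along the line with a Pearson r of 0.96, and Cxcl1, Cxcl2, Il1b and Nos1 lie below it.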

How the data were processed

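Each library is a deposited table of raw read counts per gene for 54232 mouse gene identifiers; per the submitters' processing notes reads were counted with HTSeq on mm10, with aligner, annotation, version and strandedness not given in the sources used here. Symbols came from GENCODE M21 (54165 identifiers matched). All 36 libraries entered 1 edgeR 4.0.16 quasi-likelihood fit (R 4.3.3) with TMM scaling, edgeR's filter on low counts by group, and Benjamini-Hochberg adjustment over 12957 genes; a call is an adjusted p under 0.05. Log2 fold changes are 8 h minus 2 h with the SE of the fit. CPM are relative to TMM-scaled library sizes, and their comparisons are between samples, not between genes. Library sets come from the first principal component after removal of group means. Alternatives were DESeq2 1.42.0, limma 3.58.1 with voom, other scalings and filters, each set alone, a change of at least 2-fold and leaving out libraries. Where reads can be split between copies or overlapping genes, this is said beside the gene.

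The comparison, the gene lists and the tests were chosen with earlier results of these data known. Genes were named by rule: the 15 largest changes in each direction at a mean log2 CPM of 2 or more, the 10 largest CPM differences, up to 5 called members per list and direction, and a short fixed set. Some results that the rule picked are not reported here. B2m, Csf1r, H2-K1, Isg15, Nlrp3 and Il1a were added after their values were seen. Promoters are RefSeq (GRCm38.p6) windows, searched for each motif on both strands; a match describes letters only. Counts of reads without molecular identifiers are not independent molecules. Replicates 1 to 6 of a group are numbered in accession order. Within the KO-labelled 8 h and 2 h groups, no 2 libraries agreed within sampling noise, and the other groups were not compared in this way.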

Additional observations from a re-analysis of the deposited data

Results flagged for a closer look

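In 15 of 422 gene and group combinations tested, 1 of the 6 libraries stood apart from the others by more of the group's range than Dixon's 95% critical value allows; chance alone marks about 1 in 20 groups. Replicate 2, of set A, was the library that stood apart in 13 of them. At 8 h replicate 2 was the lowest library for Zbp1 (591 CPM, the next at 684 CPM), H2-K1 (2129 and 2810.2 CPM), Cp (125 and 258 CPM), Sod2 (1119 and 1454 CPM), Fcgr4 (429 and 558 CPM), Itgal (174 and 207 CPM), Nav2 (1.01 and 3.55 CPM) and Ms4a4a (14.7 and 50.5 CPM). It was the highest library for Cxcl1 (21.01 CPM, the next at 12.7 CPM). At 2 h replicate 2 was the lowest for Ifnar2 (87.9 and 106 CPM), Gbp2 (96.3 and 154 CPM) and Ccl5 (391.5 and 521 CPM), and the highest for Tmem273 (38.3 and 30.2 CPM). The other libraries were replicate 1 at 8 h for Egr1 (4.81 CPM, the next at 5.89 CPM) and replicate 5 at 8 h for Cish (5.24 and 3.43 CPM).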

How the results depend on the processing

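The number of genes called between 8 h and 2 h was 8453 and lay between 8250 and 8387 on leaving out each of the 12 libraries in turn; it was 4169 with a change of at least 2-fold. Library totals alone gave 2170 higher and 7755 lower genes. The difference between genotype labels had 0 calls, 0 to 1 on leaving out libraries (the 1, without KO-labelled 8 h replicate 2, being Nav2 at 1.04, adjusted p = 0.015), 145 with a mean per group and set (chosen after seeing the data) and 1792 in set B alone. The set difference had 2691 calls, 2208 to 2622 on leaving out libraries, and 877 with at least 2-fold. With library set as a term 9094 genes were called between 8 h and 2 h. No paired analysis was run, because the replicate numbers follow the accession order and the labels give none. Apart from the calls of Cd74, Ccl4 and Nlrp3, leaving out single libraries ended those of Ms4a4a (adjusted p of 0.0545 to 0.0884) and the elongation factor gene Eef1a1 (0.0543 to 0.0651). Besides those of Ciita, Cd74 and H2-Ab1, library totals alone ended the calls of Ifnar1, Ifnar2, Il10, Socs3, Wdr43, Mycl and Ms4a4a, and limma-voom that of Ccr7. Other settings also ended calls, without a change of sign, among genes named here or by the rule. Set A alone ended 10 and set B alone 2. The compared groups alone and no count filter ended 2 each. DESeq2 size factors, and leaving out libraries with BMDM in their genotype label, ended 1 each. Depth limits genes near 0 CPM, such as Cdc20 at 8 h.

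The following values differ in sign from those reported, and the cause was not tested. Log2 fold changes with library totals alone were -0.52 for Irf1, -0.51 for Fos, -0.086 for Ifnar1, -0.026 for Dusp1 and -0.48 for Rela. Without the count filter they were -0.049 for Irf1, -0.043 for Fos and -0.012 for Rela. Irf1 was at -0.018 with limma-voom, -0.0039 with the compared groups alone, -0.0070 with set as a term, -0.017 with a mean per group and set, -0.16 in set B and -0.028 without libraries that have BMDM in their genotype label. Nfkbia was at 0.27 in set B and 0.0073 without those libraries, Arg1 at 0.025 with a mean per group and set, and Mycl at -0.0099 and Gab1 at 1.07 in set B. In set A, Il10 was at -0.62, Fos at -0.39, Dusp1 at -1.14 and Tnf at 0.15. On leaving out libraries, Irf1 ran between -0.11 and 0.11, Fos between -0.089 and 0.10, Nfkbia between -0.091 and 0.018 and Rela between -0.0068 and 0.093.

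List medians with library totals alone were -0.086 for interferons and receptors, -0.19 for the proteasome, -0.52 for immediate early genes, -0.46 for decay factors, -0.24 for SOCS, -0.27 for Toll-like receptors, -0.40 for the respiratory chain, -0.35 for sterol synthesis, -0.44 for cholesterol efflux, -0.51 for iron, -0.38 for lysosomal genes, -0.23 for C-type lectins, -0.062 for complement, -0.44 for identity factors, -0.17 for purinergic and lipid receptors, -0.49 for adhesion, -0.48 for metalloproteinases and -0.32 for chromatin. In set A they turned to -0.39 for immediate early genes, 0.11 for glycolysis, 0.12 for the pentose phosphate pathway, 0.031 for the citric acid cycle, -0.13 for iron and -0.17 for identity factors. In set B they turned to 0.10 for chemokine receptors, -0.13 for immediate early genes, 0.11 for dual-specificity phosphatases, -0.021 for decay factors and -0.31 for sterol synthesis.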

Other observations

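Clock genes moved down together by count. Of 17 tested genes of the circadian clock 12 fell and 1 rose. The median was -1.25 on the log2 scale, beside -0.04 for all tested genes. The repressor gene Nr1d1 (REV-ERB alpha) had 0.307, 1.32 and 2.52 CPM at 8 h, against 8.69, 18.2 and 23.2 CPM at 2 h, and a log2 fold change of -3.58 ± 0.37; it overlaps Thra in the genome. Bhlhe40 (-3.28 ± 0.39) and the output gene Dbp (-2.85 ± 0.52) fell too. Hours in culture and hours of LPS cannot be told apart in this design, in which the times of harvest are not given in the labels. Among chromatin regulators 11 of 26 rose and 7 fell. Setdb2, an interferon-induced histone methyltransferase, had 111, 126 and 142 CPM at 8 h, against 9.34, 14.02 and 20.6 CPM at 2 h (3.08 ± 0.20), and Hdac1 (1.81 ± 0.10), Ep300 (1.61 ± 0.12) and Tet2 (1.37 ± 0.11) rose. Kdm6b, the demethylase of histone H3 lysine 27 that LPS induces early, had 5.83, 13.5 and 20.4 CPM at 8 h, against 46.6, 79.8 and 112 CPM at 2 h (-2.60 ± 0.33), and Hdac5 (-1.91 ± 0.15) and the maintenance methyltransferase Dnmt1 (-1.57 ± 0.18) fell.

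Receptors for lipids, nucleosides and particles moved both ways. Among the purinergic, adenosine and lipid receptors 12 of 25 rose and 9 fell: Adora2a, the adenosine receptor that dampens inflammation, had 98.5, 182 and 214 CPM at 8 h, against 12.3, 19.1 and 31.8 CPM at 2 h (3.05 ± 0.28), and Fpr2, a formyl peptide receptor, rose by 5.24 ± 0.35. Of the 17 scavenger and efferocytosis receptors 6 rose (35.3%) and 7 fell (41.2%), near the 31.5% and 33.7% of all tested genes. The rises included Marco (3.15 ± 0.42) and the apoptotic cell receptor gene Mertk (2.32 ± 0.32), and the falls the oxidised lipoprotein receptor gene Olr1 (-2.47 ± 0.26). Axl, which has the same ligand as Mertk, rose (2.46 ± 0.36). The integrin gene Itgal rose (2.98 ± 0.26), while Itgb3 (-1.83 ± 0.56) and Cd44 (-0.94 ± 0.11) fell. The membrane protease genes Mmp14 (3.88 ± 0.43) and Mmp25 (4.24 ± 0.52) rose. Of the chemokine receptors Ccr7 rose (2.84 ± 0.94) and Cxcr4 fell (-3.19 ± 0.44). Among 29 transcription factors of macrophage identity 11 rose (37.9%) and 12 fell (41.4%), near the 31.5% and 33.7% of all tested genes. Batf2 (4.53 ± 0.26) was higher. Cebpa (-3.36 ± 0.23), Mef2c (-1.97 ± 0.24) and Pparg, from the list of alternative activation (-2.82 ± 0.16), were lower. Csf1r, the receptor of the growth factor in the medium, had 699, 797 and 962 CPM at 8 h, against 1036, 1129.7 and 1507 CPM at 2 h (-0.58 ± 0.15, adjusted p = 9.91e-04).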
